A study of Mus musculus with 18 samples.

Results

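The genes described here are 46 nuclear genes of the mitochondrial respiratory chain in mouse regulatory T cells (Tregs), which restrain immune responses and depend on the transcription factor Foxp3. They were chosen by name, as subunits of complexes I to V with cytochrome c. Of the 19752 genes that the array table yielded, 45 were these genes. The remaining gene, Ndufb4, was named only on probe sets shared with Ndufb4b and was not analysed. Of the 45, complex I had 24 (6 core subunits and 18 accessory ones), complex II 4, complex III with cytochrome c 7, complex IV 7 and complex V 3.

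Complexes I and II pass electrons from NADH and succinate to ubiquinone, complex III passes them through cytochrome c to complex IV, and complex IV reduces oxygen. Complexes I, III and IV pump protons as they do so, and complex V, the ATP synthase, uses the proton gradient to make ATP. Apart from complex II, which is built from nuclear genes alone, each complex also holds subunits encoded in mitochondrial DNA. Resting T cells depend largely on this chain for ATP, and it also supplies dividing T cells with oxidised cofactors needed for nucleotide synthesis.

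Sorted Tregs gave RNA for 18 arrays (Affymetrix Mouse Gene 1.0 ST), in 6 groups of 3. All spleen cells came from female NOD mice, a strain prone to autoimmune diabetes, aged 60 days, that carried Foxp3-eGFP-Cre-ERT2, in which Foxp3 drives GFP and a tamoxifen-activated recombinase, and Rosa26-YFP, its reporter. Tamoxifen in 4 injections switched YFP on for good in cells that expressed Foxp3 at that time. A tagged (GFP+YFP+) cell therefore expressed Foxp3 in that window, or descends from a cell that did. An untagged (GFP+YFP-) cell is any other GFP+ cell. The tag does not date when a cell was formed, so adult-tagged cells can include cells formed earlier in life. The spleen groups were perinate-tagged (replicates 2, 4 and 5) and perinate-treated untagged cells (3, 4 and 5), from mice injected between days 0 and 10, and adult-tagged (1, 2 and 3) and adult-treated untagged cells (3, 4 and 5), from mice injected between days 35 and 45. The thymus groups were CD4+ GFP+ cells of male NOD mice carrying a Foxp3 reporter, taken at 4 days of age (perinate thymus) or at 5 weeks (adult thymus), replicates 1 to 3 each. Sex, sorter and tissue differed together between spleen and thymus and cannot be told apart. Whether replicates came from separate animals is not stated in the labels, and the spread that the p-values rest on may therefore be technical.

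Levels are log2 of the deposited intensities, of 1 probe set per gene, and are not compared between genes. Differences are the first-named group minus the second, on the log2 scale, with their standard error (SE) and n = 3 arrays per group unless stated. A gene was called when its adjusted p from limma (Benjamini-Hochberg over all genes tested) was under 0.05. A gene was tested when 1 or more group means of the fit reached 7.05. All 45 passed. Ndufb2 did so in the spleen through perinate-tagged and adult-treated untagged cells, with adult-tagged and perinate-treated untagged means of 6.96 and 6.95. In the thymus Ndufa1 passed through perinate cells only and Ndufb3 through adult cells only.

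Foxp3 was high on every array, at 11.88 to 12.40, and 7 of 8 Treg markers were found with 0 of them at background. Perinate-tagged replicate 2 went against its sex label: it had the Y-linked gene Eif2s3y at 9.79 and Xist at 8.38. The remaining 11 spleen arrays had 3.95 to 4.90 and 11.86 to 12.41 for these genes. The interquartile range of all probe sets, a measure of how wide an array's values spread, was 2.94 to 3.12 in perinate-tagged, 2.49 to 2.88 in adult-tagged, 3.00 to 3.06 in perinate thymus and 2.08 to 2.82 in adult thymus arrays, with adult thymus replicate 2 the lowest. The summed linear level of 8 B cell markers, 5 of them at or below background in all groups, was 1060 to 1240 in perinate-tagged and 890 to 937 in adult-tagged arrays, while the means of 3 were higher and of 5 lower in perinate-tagged cells. That of 10 myeloid markers (4 at or below background) was 685 to 922 in perinate-tagged and 681 to 774 in adult-tagged arrays (5 higher, 5 lower), and that of 10 epithelial and stromal markers (1 at or below background) was 2180 to 2380 in perinate-tagged and 2300 to 2360 in adult-tagged arrays (3 higher, 7 lower). Of the B cell markers only Cd79b passed the filter, and it was called higher, at 0.66 ± 0.14. Of the 5 epithelial and stromal markers tested, 1 was called, Epcam, higher at 1.07 ± 0.23. Of the myeloid markers only Fcer1g passed the filter, and only through perinate-tagged cells (mean 7.17, against 6.53 in adult-tagged cells). In the thymus, 9 markers of immature or CD8+ thymocytes (3 at or below background) summed to 2780 to 2970 in perinate and 3350 to 3780 in adult arrays. The means of all 9 were lower in perinate thymus, and Cd8a was called lower, at -0.61 ± 0.11 (limma adjusted p = 0.00735). Also lower in perinate thymus were the means of 7 of 8 B cell and 9 of 10 myeloid markers. So were those of 5 of 5 erythroid, 5 of 5 natural killer cell and 6 of 10 epithelial and stromal markers. RNA recovery was followed by the median of 50 small nucleolar RNA genes. This was 8.14 to 8.53 in perinate-tagged and 8.70 to 9.54 in perinate-treated untagged arrays, which did not overlap. It was 8.32 to 8.74 in adult-tagged and 8.22 to 8.69 in adult-treated untagged arrays. In the thymus it was 8.70 to 8.80 in perinate and 8.14 to 8.85 in adult arrays. The part of these quantities in the results below was not tested.

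The promoters of 6 genes that the comparisons turn on are shown first, each as the 250 bases before the start of the gene, 5′ to 3′ on the gene's strand, from RefSeq on GRCm38.p6. Ndufb6 and Sdhd had the lowest p among the called genes of complexes I and II in tagged spleen cells, Sdhb was called with them, Ndufa1 and Ndufb7 were called in the interaction of tag and treatment age, and Cycs is the textbook target of the factors named below. Capitals mark the NRF1 core GCGCATGC, the ETS core CCGGAAG (bound by GABP, also called NRF2) and the cyclic AMP response element TGACGTCA, on either strand.
Ndufb6, chr4:40279422-40279671, minus strand: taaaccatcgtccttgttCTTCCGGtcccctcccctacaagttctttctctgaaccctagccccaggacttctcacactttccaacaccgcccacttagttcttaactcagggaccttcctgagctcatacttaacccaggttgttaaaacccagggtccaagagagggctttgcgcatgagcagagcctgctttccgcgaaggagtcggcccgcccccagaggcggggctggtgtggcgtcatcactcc
Ndufb7, chr8:83566508-83566757, plus strand: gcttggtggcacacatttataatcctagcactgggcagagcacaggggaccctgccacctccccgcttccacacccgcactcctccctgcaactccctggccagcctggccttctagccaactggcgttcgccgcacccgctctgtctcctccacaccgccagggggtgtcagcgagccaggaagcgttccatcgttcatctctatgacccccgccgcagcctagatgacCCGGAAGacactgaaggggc
Ndufa1, chrX:37191239-37191488, minus strand: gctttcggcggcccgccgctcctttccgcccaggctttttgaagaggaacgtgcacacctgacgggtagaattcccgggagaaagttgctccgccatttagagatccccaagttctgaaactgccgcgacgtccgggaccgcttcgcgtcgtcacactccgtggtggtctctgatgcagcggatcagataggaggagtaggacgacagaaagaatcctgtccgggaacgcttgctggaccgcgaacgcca
Sdhb, chr4:140961021-140961270, plus strand: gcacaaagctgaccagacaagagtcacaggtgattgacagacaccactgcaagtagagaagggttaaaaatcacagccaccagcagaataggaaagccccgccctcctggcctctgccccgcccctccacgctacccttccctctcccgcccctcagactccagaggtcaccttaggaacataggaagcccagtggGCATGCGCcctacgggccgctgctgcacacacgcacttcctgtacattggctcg
Sdhd, chr9:50603850-50604099, minus strand: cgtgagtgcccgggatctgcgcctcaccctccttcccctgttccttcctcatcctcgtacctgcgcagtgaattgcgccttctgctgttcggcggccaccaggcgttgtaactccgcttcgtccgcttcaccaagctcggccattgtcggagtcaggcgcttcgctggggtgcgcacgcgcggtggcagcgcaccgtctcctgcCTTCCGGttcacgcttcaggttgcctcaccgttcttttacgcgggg
Cycs, chr6:50566570-50566819, minus strand: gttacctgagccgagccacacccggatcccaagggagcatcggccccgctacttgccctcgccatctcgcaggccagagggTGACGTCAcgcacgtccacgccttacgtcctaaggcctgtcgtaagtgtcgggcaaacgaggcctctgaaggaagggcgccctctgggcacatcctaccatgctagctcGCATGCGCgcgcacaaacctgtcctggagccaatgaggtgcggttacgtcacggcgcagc

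NRF1 and GABP are the factors best known for activating nuclear respiratory genes, and CREB acts through the cyclic AMP response element. The NRF1 core stood 54 bases before the start in Sdhb and 60 in Cycs. The ETS core stood 20 bases before the start in Ndufb7, 46 in Sdhd and 232 in Ndufb6, and the cyclic AMP response element 169 in Cycs. Windows were found for 34 of the 45 genes, 36 windows in all. Of these, 11.1% held the NRF1 core, against 2.26% of all 32851 windows of this length. The ETS core was in 11.1% against 6.91%, the cyclic AMP response element in 11.1% against 1.55%, and the YY1 core ATGGCGG (Ndufa1 and Ndufa5) in 5.56% against 2.21%. The E-box CACGTG was in 2.78% against 6.02%, and CCAAT in 36.1% against 33.8%. No motif is contained in another. Each of the first 3 motifs was in 4 genes: the NRF1 core also in Ndufa6 and Ndufa8, the ETS core also in Ndufs3, and the cyclic AMP response element also in Ndufa10, Ndufb2 and Uqcrfs1. A match is a description of these letters, and the spellings were settled after longer ones had been looked at.

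The comparison of perinate-tagged with adult-tagged spleen Tregs asks whether cells marked around birth still differ from cells marked in adult life when both are taken at the same age. The time since tamoxifen was longer for perinate-tagged cells and cannot be told apart from the age at marking. Respiratory chain genes were higher in perinate-tagged cells: 24 of 45 were called higher and 0 lower, where 16.0% of all 10350 genes tested were called higher and 3.50% lower. The median difference was 0.45 over the 45 genes and 0.12 over all genes. It was above 0 for 43 of the 45, and the exceptions were Ndufs7 at -0.10 and Sdha at -0.06. In 34 of the 45 (75.6%) every perinate-tagged array was above every adult-tagged array, where this held for 33.2% of all genes. In such pools of sorted cells, fewer cells expressing a gene and less of its RNA per cell cannot be told apart.

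**Figure D1:**
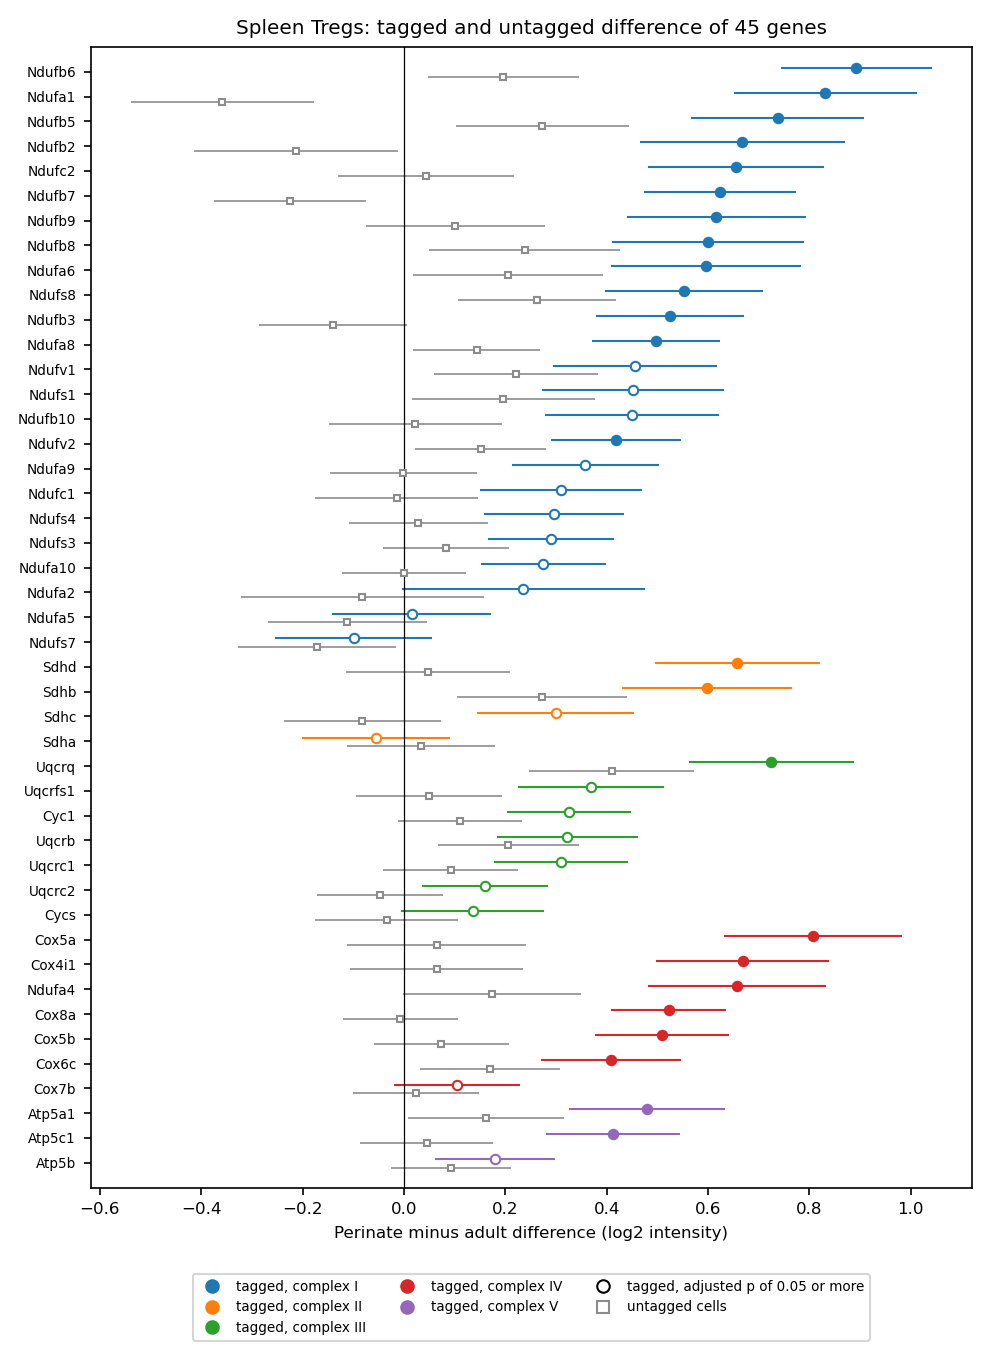
Each point is the log2 difference of 1 respiratory chain gene with its SE, by complex, for perinate-tagged minus adult-tagged and for perinate-treated minus adult-treated untagged spleen Tregs (3 arrays a group). Tagged differences lie above 0 for 43 of 45 genes, with a median of 0.45, and untagged ones lie around a median of 0.06.

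In complex I, 13 of 24 genes were called higher, 2 of the 6 core subunits and 11 of the 18 accessory subunits that surround the core. Ndufb6, an accessory subunit of the membrane arm, was at 9.94, 10.16 and 10.07 in perinate-tagged cells, against 8.99, 9.28 and 9.23 in adult-tagged cells. The groups did not overlap, and the difference was 0.89 ± 0.15 (1.86-fold, limma adjusted p = 0.000858). Ndufa1, an X-linked accessory subunit needed to assemble the membrane arm, was at 8.13, 8.16 and 8.34 in perinate-tagged cells, against 7.01, 7.63 and 7.50 in adult-tagged cells. These groups did not overlap either, with adult-tagged replicate 1 lowest, and differed by 0.83 ± 0.18 (1.78-fold, limma adjusted p = 0.00568). The other accessory subunits called were Ndufa6, Ndufa8, Ndufb2, Ndufb3, Ndufb5, Ndufb7, Ndufb8, Ndufb9 and Ndufc2, with differences of 0.50 to 0.74. The core subunits called were the iron-sulfur proteins Ndufs8 at 0.55 and Ndufv2 at 0.42. Ndufs7, the core subunit that hands electrons to ubiquinone, was at 12.02, 11.46 and 11.52 in perinate-tagged cells, against 11.62, 11.93 and 11.75 in adult-tagged cells. Its groups overlapped, and the 1 perinate-tagged array above all others was replicate 2, the array that went against its sex label.

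Complex II had 2 of 4 genes called. Sdhd, a membrane anchor that helps bind ubiquinone, was at 9.50, 9.49 and 9.52 in perinate-tagged cells, against 8.66, 9.02 and 8.85 in adult-tagged cells. The perinate-tagged arrays lay within 0.03 of each other and above all adult-tagged ones, a difference of 0.66 ± 0.16 (1.58-fold, limma adjusted p = 0.0118). Sdhb, the iron-sulfur subunit, was at 9.64, 9.75 and 9.86 in perinate-tagged cells, against 8.99, 9.33 and 9.14 in adult-tagged cells. The groups did not overlap and differed by 0.60 ± 0.17 (limma adjusted p = 0.0225). Sdha, the flavoprotein that oxidises succinate, was at 10.15, 10.29 and 10.30 in perinate-tagged cells, against 10.34, 10.23 and 10.34 in adult-tagged cells, and overlapped. Its difference was -0.06 ± 0.15 (limma adjusted p = 0.816).

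In complex III and cytochrome c, 1 of 7 genes was called, with a median difference of 0.32. Uqcrq, a small subunit of the cytochrome bc complex, was at 8.83, 9.20 and 9.11 in perinate-tagged cells, against 8.34, 8.25 and 8.37 in adult-tagged cells. The groups did not overlap and differed by 0.72 ± 0.16 (1.65-fold, limma adjusted p = 0.00708). Cycs, cytochrome c itself, was at 12.02, 11.65 and 11.68 in perinate-tagged cells, against 11.56, 11.82 and 11.57 in adult-tagged cells. These groups overlapped, and the difference of 0.14 ± 0.14 did not pass the test (limma adjusted p = 0.523). The others, among them cytochrome c1 (Cyc1) and the Rieske iron-sulfur protein Uqcrfs1, had differences of 0.16 to 0.37.

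Complex IV had the highest share of calls among the complexes with more than 4 genes, 6 of 7. Cox5a, a nuclear subunit on the matrix side, was at 9.46, 10.05 and 9.93 in perinate-tagged cells, against 8.77, 9.01 and 9.24 in adult-tagged cells. The groups did not overlap and differed by 0.81 ± 0.18 (1.75-fold, limma adjusted p = 0.00592). Cox4i1, the ubiquitous form of the largest nuclear subunit, was at 9.40, 9.31 and 9.54 in perinate-tagged cells, against 8.52, 8.87 and 8.86 in adult-tagged cells. It too did not overlap, with a difference of 0.67 ± 0.17 (limma adjusted p = 0.0144). Ndufa4, first described in complex I and now counted with complex IV, Cox5b, Cox6c and Cox8a were also called, at 0.41 to 0.66, and Cox7b was not, at 0.11 ± 0.12.

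In complex V, Atp5a1, the alpha subunit of the catalytic head, was at 10.72, 11.03 and 11.01 in perinate-tagged cells, against 10.46, 10.47 and 10.39 in adult-tagged cells. Atp5c1, the gamma subunit that turns inside the head, was at 10.54, 10.84 and 10.80 in perinate-tagged cells, against 10.35, 10.32 and 10.27 in adult-tagged cells. Neither overlapped, and the differences were 0.48 ± 0.15 (limma adjusted p = 0.0413) and 0.41 ± 0.13 (0.0406). Atp5b, the beta subunit that holds the catalytic sites, differed by 0.18 ± 0.12 and was not called (limma adjusted p = 0.298).

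**Figure D2:**
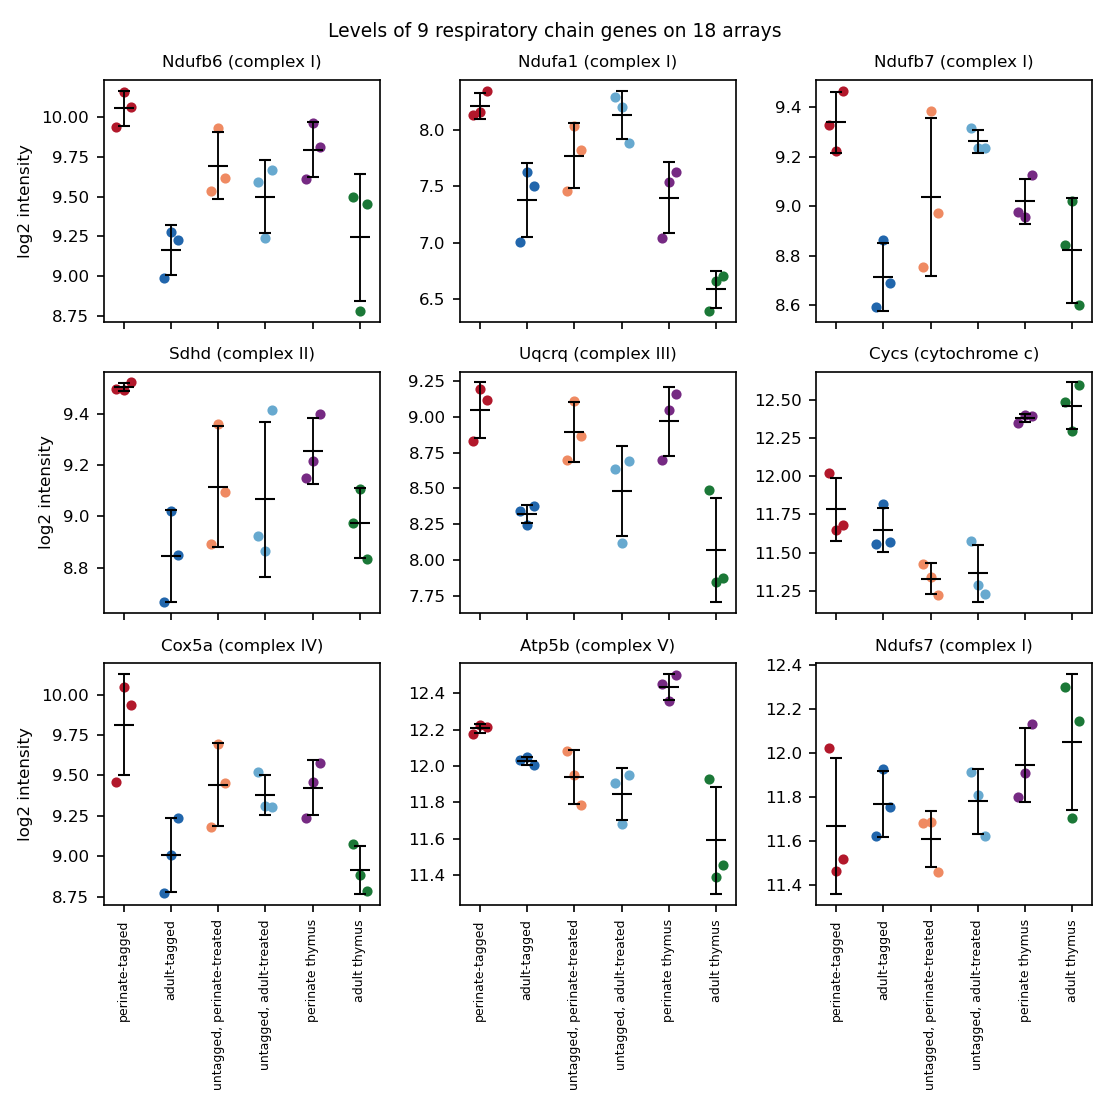
Log2 levels of 9 respiratory chain genes on all 18 arrays, with the mean and SD of each group of 3. Ndufb6, Ndufa1, Sdhd, Uqcrq and Cox5a do not overlap between perinate-tagged and adult-tagged cells, and Ndufs7 and Cycs do.

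The number of calls rested on single arrays and on how arrays were scaled. Leaving out adult-tagged replicate 1 gave 6 calls (7.60% of all genes higher), and leaving out replicate 2 or 3 of that group gave 17 (15.8% and 9.41%). Leaving out perinate-tagged replicate 5 gave 7 (8.32%) and replicate 4 gave 12 (9.04%). Leaving out replicate 2 of that group gave 24 (15.3%), of which 22 were among the 24. Medians were 0.39 to 0.52. The calls of Ndufa1, Ndufb5, Ndufb6, Uqcrq, Cox5a and Cox8a held with any 1 of the 6 arrays left out. That of Sdhd held in 5 of these 6 fits, that of Cox4i1 in 4, that of Sdhb in 2, and those of Atp5a1 and Atp5c1 in 1. After quantile normalization 10 were called, where 10.7% of all genes were called higher, and the median was 0.29, against -0.01 over all genes. With the interquartile range as a covariate 0 were called, where 2.95% of all genes were called higher (median 0.23, and -0.02 over all genes). With array weights 35 were called, where 41.1% of all genes were called higher.

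**Figure D3:**
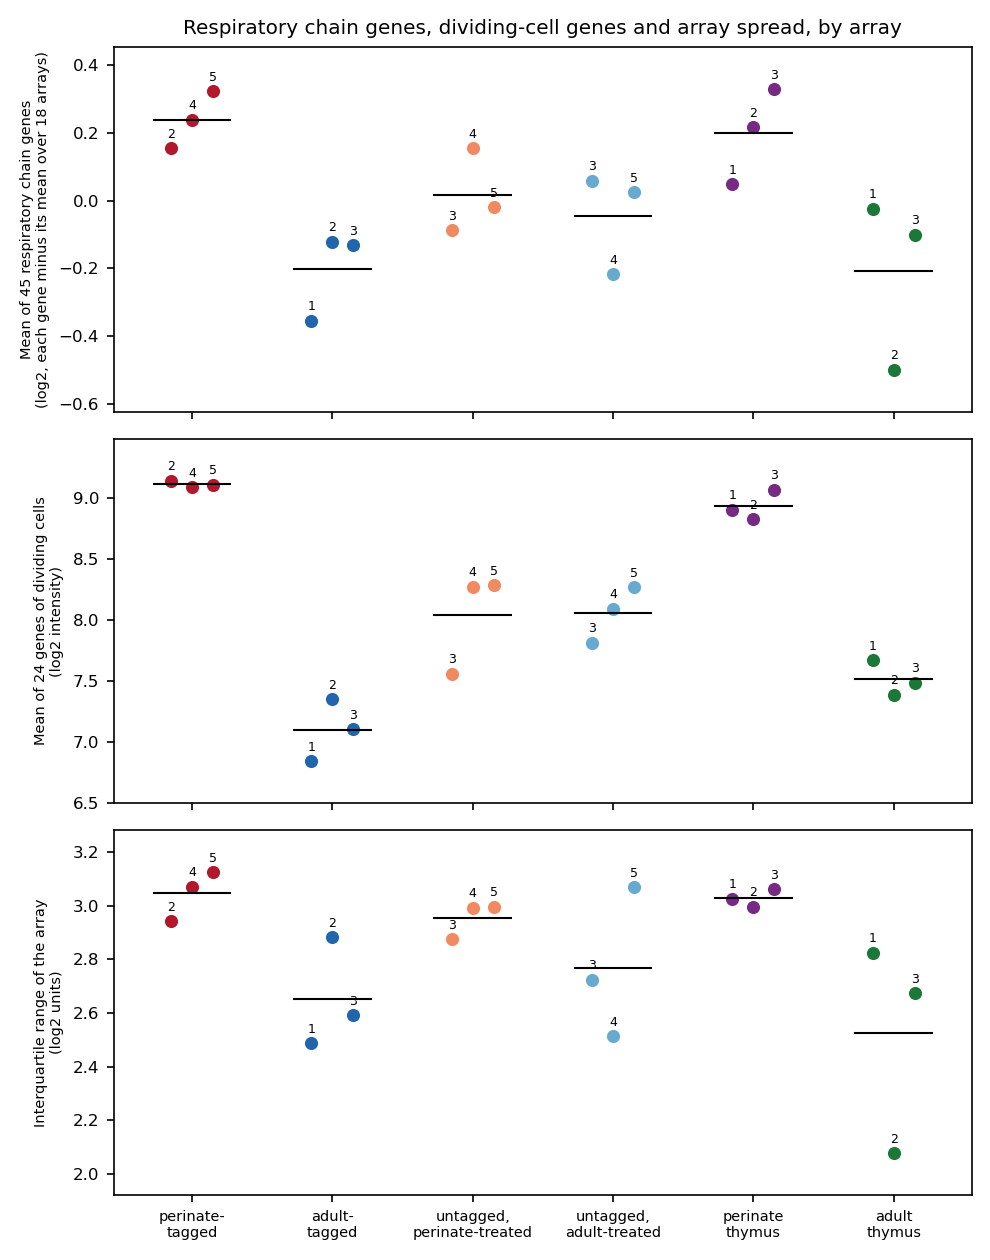
By array, the mean log2 level of the 45 genes relative to their means over 18 arrays, the mean log2 level of 24 genes of dividing cells, and the interquartile range of all probe sets. The 45 genes are at 0.15 to 0.32 in perinate-tagged and at -0.35 to -0.12 in adult-tagged arrays, and all 3 panels put the perinate-tagged arrays above the adult-tagged ones.

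Averaged over the 45 genes, each relative to its mean over 18 arrays, perinate-tagged cells were at 0.15, 0.24 and 0.32, against -0.35, -0.12 and -0.13 in adult-tagged cells. The perinate-treated untagged arrays were at -0.09, 0.16 and -0.02 and the adult-treated untagged ones at 0.06, -0.22 and 0.02, and those groups overlapped. Genes of dividing cells separated the tagged groups too, with 23 of 24 tested and those 23 called higher, where 16.0% of all genes were. Some of these, such as Bub1, were below the filter in adult-tagged cells. Nuf2 passed the filter only through perinate-tagged cells, so it was tested only because of the group where it was high. The mean level of all 24 was 9.09 to 9.14 in perinate-tagged and 6.84 to 7.35 in adult-tagged arrays. The 22 immediate early genes, which respond to stimulation and to handling, averaged 8.83 to 9.11 in perinate-tagged and 8.56 to 8.64 in adult-tagged arrays.

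Other genes of the chain and of mitochondria were read from lists of known members, beside the 16.0% called higher and the median of 0.12 over all genes. Of 31 further structural subunits, 12 (38.7%) were called higher and 0 lower (median 0.38), among them Atpif1, the inhibitor of the ATP synthase, at 0.82 ± 0.14 (limma adjusted p = 0.00124) and Atp5o, part of the stalk of complex V, at 0.80 ± 0.20. Of 36 assembly factors, 5 (13.9%) were called higher and 0 lower (median 0.22), among them Ndufaf1 of complex I at 0.75 ± 0.20 and Surf1 of complex IV at 0.57 ± 0.16. Of 17 regulators of mitochondrial biogenesis and mitochondrial DNA, 1 (5.88%) was called higher and 0 lower (median 0.07): Gabpa, which encodes the DNA-binding part of GABP, at 0.60 ± 0.15 (limma adjusted p = 0.0116). Of 15 genes of the citric acid cycle and pyruvate dehydrogenase, 5 (33.3%) were called higher and 0 lower (median 0.29), led by Idh3a, a subunit of isocitrate dehydrogenase, at 0.96 ± 0.17 (limma adjusted p = 0.0013) and fumarase, Fh1, at 0.71 ± 0.14. Of 10 tissue-restricted isoforms 3 were tested, and 1 was called lower, the muscle form Cox6a2, at -0.62 ± 0.15 (limma adjusted p = 0.0111). None of the 13 mitochondrially encoded subunits was found under its symbol, and they were not analysed here.

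The same comparison in untagged cells asks whether the age at tamoxifen treatment goes with a difference outside the tagged cells. All these mice were 60 days old, so treatment age and time since tamoxifen cannot be told apart. The untagged cells of each treatment also leave out the cells marked in a different window. With limma, 0 of 45 respiratory genes were called, and 0% of all 10350 genes in either direction. At an unadjusted p under 0.05 there were 1 of the 45, higher, and 336 higher and 44 lower of all genes. The median difference was 0.06 over the 45 genes and 0.06 over all genes, and the 95% intervals of the 45 differences lay between -0.74 and 0.76. In 1 gene, Uqcrq, every perinate-treated array was above every adult-treated one, where this held for 3.35% of all genes, and in 0 the reverse held, where it did for 1.46%. Uqcrq was at 8.70, 9.11 and 8.87 in perinate-treated untagged cells, against 8.63, 8.12 and 8.69 in adult-treated untagged cells, a difference of 0.41 ± 0.16 (limma adjusted p = 0.995). Ndufa1 was at 7.46, 8.03 and 7.82 in perinate-treated untagged cells, against 8.29, 8.21 and 7.89 in adult-treated ones. These overlapped, with a difference of -0.36 ± 0.18, and Ndufs8, next by p, differed by 0.26 ± 0.16. Same-numbered arrays were taken as pairs here, although the values did not clearly tell number 4 from number 5. With the pairs as a block and only these 6 arrays, 37 genes were called higher and 12 lower of 9891, 0 of them among the 45.

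Whether the tagged difference exceeded the untagged one was tested as an interaction. It was above 0 for 44 of 45 genes, all but Sdha (median 0.33, against 0.04 over all genes), and 2 were called, both higher, which is 4.44% of the 45 where 4.29% of all genes were called higher and 0.599% lower. Ndufa1 had an interaction of 1.19 ± 0.26 (limma adjusted p = 0.0135). Its group means were 8.21 in perinate-tagged, 7.38 in adult-tagged, 7.77 in perinate-treated untagged and 8.13 in adult-treated untagged cells, so adult-tagged cells were lowest in the spleen. Ndufb7, an accessory subunit on the intermembrane side, had an interaction of 0.85 ± 0.21 (limma adjusted p = 0.0314). It was at 9.33, 9.22 and 9.47 in perinate-tagged, 8.59, 8.86 and 8.69 in adult-tagged, 8.75, 9.38 and 8.97 in perinate-treated untagged and 9.32, 9.24 and 9.24 in adult-treated untagged cells. Here too the adult-tagged arrays were low, while 1 perinate-treated untagged array was at a tagged level. The call of Ndufa1 held with any 1 array left out. That of Ndufb7 was lost without adult-tagged replicate 1 or 3, perinate-tagged replicate 4 or 5, adult-treated untagged replicate 5, or perinate-treated untagged replicate 3 or 5, with adjusted p of 0.0522 to 0.102.

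A further comparison set tagged against untagged cells of the perinate-treated mice; the untagged cells are the Tregs not marked in that window. Here 0 of 45 genes were called by limma, where 5.49% of all genes were called higher and 1.86% lower. At an unadjusted p under 0.05 there were 1533 higher and 817 lower of all 10350 genes, and 11 of the 45, all higher. The median was 0.22, against 0.02 over all genes, with 42 of 45 above 0. In 18 (40%) every tagged array was above every untagged one, where this held for 19.7% of all genes, and in 0 the reverse held. Ndufb2, an accessory subunit of complex I, was at 7.44, 7.62 and 7.81 in tagged cells, against 7.06, 6.90 and 6.89 in untagged cells (difference 0.67 ± 0.20, limma adjusted p = 0.0584). Cycs was at 12.02, 11.65 and 11.68 in tagged cells, against 11.43, 11.34 and 11.22 in untagged cells (difference 0.45 ± 0.14, limma adjusted p = 0.0673). Ndufb3, another accessory subunit, was at 7.91, 7.57 and 7.78 in tagged cells, against 7.33, 7.42 and 7.26 in untagged cells (difference 0.42 ± 0.15, limma adjusted p = 0.101). None of the 3 overlapped. Ndufb2 was the only one of the 45 called with only these 6 arrays in the fit (limma adjusted p = 0.0152). Of 15 genes of the citric acid cycle and pyruvate dehydrogenase, 3 were called higher: Idh3a at 0.71 ± 0.17, Fh1 at 0.52 ± 0.14 and citrate synthase, Cs, at 0.46 ± 0.13.

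Within adult-treated mice, the median difference of tagged from untagged cells was -0.16, against -0.02 over all genes, and 38 of 45 genes were below 0. Again 0 of 45 were called by limma, where 0% of all genes were called higher and 0.271% lower. At an unadjusted p under 0.05 there were 592 higher and 1107 lower of all 10350 genes, and 8 of the 45, all lower. In 10 of the 45 genes (22.2%) every tagged array was below every untagged one, where this held for 10.3% of all genes. In 1 (2.22%) every tagged array was above, where this held for 6.70%. The lowest p belonged to Ndufa1, at 7.01, 7.63 and 7.50 in tagged cells, against 8.29, 8.21 and 7.89 in untagged cells (difference -0.75 ± 0.18, limma adjusted p = 0.0884). Ndufb7 differed by -0.55 ± 0.15 (limma adjusted p = 0.123). Ndufc2, a membrane arm accessory subunit, was at 10.55, 10.68 and 10.80 in tagged cells, against 11.11, 10.92 and 11.40 in untagged cells (difference -0.47 ± 0.17, limma adjusted p = 0.226). None of these overlapped. Of 23 genes of dividing cells tested, 7 were called lower and 0 higher here. In the perinate-treated comparison 20 were called higher and 0 lower, where 5.49% of all genes were called higher. Among those 20, Nuf2 passed the filter only through perinate-tagged cells. The spleen comparisons share arrays with each other, so their values are not independent.

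The thymus comparison asks how Tregs of the organ in which they form differ with age. Of 45 respiratory genes 10 were called higher and 0 lower, 22.2%, where 18.5% of all 10650 genes were called higher and 5.84% lower. The median difference was 0.42, against 0.17 over all genes, and 39 were above 0. In 23 genes (51.1%) every perinate array was above every adult array, where this held for 36.9% of all genes. In 1 (2.22%), Ndufa2, the reverse held, where it did for 16.7% of all genes. The calls were 3 of 24 in complex I, 0 of 4 in complex II, 2 of 7 in complex III, 3 of 7 in complex IV and 2 of 3 in complex V, with medians of 0.41, 0.27, 0.38, 0.51 and 0.85.

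Complex V stood highest. Atp5a1 was at 11.01, 10.88 and 11.00 in perinate thymus, against 10.17, 9.35 and 9.95 in adult thymus, a difference of 1.14 ± 0.20 (2.20-fold, limma adjusted p = 0.00786). Atp5b was at 12.45, 12.36 and 12.50 in perinate thymus, against 11.93, 11.39 and 11.45 in adult thymus, a difference of 0.85 ± 0.16 (1.80-fold, limma adjusted p = 0.00971). Neither gene overlapped, and adult replicate 2 was the lowest array for both. Atp5c1, the third gene of the complex, differed by 0.31.

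In complex I, Ndufc2 was at 11.63, 11.84 and 12.02 in perinate thymus, against 11.38, 10.44 and 11.20 in adult thymus (difference 0.82 ± 0.24, limma adjusted p = 0.0409). Ndufa1 was at 7.04, 7.53 and 7.62 in perinate thymus, against 6.40, 6.66 and 6.70 in adult thymus (difference 0.81 ± 0.18, limma adjusted p = 0.0162). Neither overlapped. The adult thymus levels of Ndufa1 lay under the filter and just above the background range of 3.95 to 6.30 set by transcripts of the other sex, so it was tested only because of the group where it was high. With no filter its adjusted p was 0.0221, and with a filter at the 60th percentile it was not tested. Ndufs1, the largest core subunit, was also called, at 0.54 ± 0.14.

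In complex III, Uqcrq was at 8.70, 9.04 and 9.16 in perinate thymus, against 8.49, 7.85 and 7.87 in adult thymus (difference 0.90 ± 0.20, limma adjusted p = 0.0191). Uqcrfs1, the Rieske protein, was at 7.88, 7.95 and 8.05 in perinate thymus, against 7.42, 7.08 and 7.35 in adult thymus (difference 0.68 ± 0.13, limma adjusted p = 0.0103). Both were without overlap. In complex IV, Ndufa4 was at 8.63, 9.04 and 8.99 in perinate thymus, against 8.14, 7.87 and 8.19 in adult thymus (difference 0.82 ± 0.15, limma adjusted p = 0.00973). Cox5b, the zinc-binding subunit, was at 10.84, 10.97 and 11.03 in perinate thymus, against 10.46, 10.05 and 10.49 in adult thymus (difference 0.61 ± 0.15, limma adjusted p = 0.0235). Both were again without overlap, and Cox5a, the third gene called, differed by 0.51 ± 0.14.

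In the thymus 18.5% of all genes were called higher, with a median of 0.17, and the other lists stand beside that. Of 31 further subunits 5 (16.1%) were called higher and 0 lower (median 0.37), with Atp5e of complex V at 0.89 ± 0.15 and Uqcrh of complex III at 0.87 ± 0.27. Of 33 assembly factors 5 (15.2%) were called higher and 1 lower (median 0.35): Coa5, also of complex IV assembly, was at 0.89 ± 0.15 and Cox20, which helps assemble complex IV, at -0.87 ± 0.19 (limma adjusted p = 0.0166). Of 18 regulators 3 (16.7%) were called higher and 0 lower (median 0.24): Ssbp1, which coats single-stranded mitochondrial DNA, at 0.53 ± 0.13, Myc at 0.51 ± 0.13 and the mitochondrial DNA polymerase Polg at 0.44 ± 0.13. Of 15 citric acid cycle and pyruvate dehydrogenase genes 5 (33.3%) were called higher and 0 lower (median 0.41), led by Pdha1, of pyruvate dehydrogenase, at 1.10 ± 0.17 (limma adjusted p = 0.00453). Of the genes of dividing cells 23 of 24 were tested and called higher, some of which, such as Bub1 and Nuf2, passed the filter only through perinate cells. The mean level of all 24 was 8.83 to 9.07 in perinate and 7.39 to 7.67 in adult thymus.

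The thymus counts depended on single arrays. Without adult replicate 1, 20 of the 45 were called higher, where 29.1% of all genes were. Without adult replicate 2, 22 were, where 26.7% of all genes were, in each case with Ndufa2 called lower. Of all genes, 1212 of 10924 were called lower without adult replicate 1, and 1428 of 10371 without adult replicate 2. Without adult replicate 3 or perinate replicate 1, 5 were called higher (7.08% and 4.76% of all genes). Without perinate replicate 2, 2 were (5.51% of all genes), and without perinate replicate 3, 1 was (5.21%). Medians were 0.30 to 0.55, and Atp5a1 alone kept its call with any 1 array left out. Atp5b lost it without perinate replicate 1 or 3 (limma adjusted p = 0.0561 and 0.0552). Ndufa1, Ndufa4 and Uqcrfs1 lost it without perinate replicate 2 or 3, Uqcrq without these or adult replicate 3, and Ndufc2 and Cox5b without adult replicate 3 or any 1 perinate replicate. With the interquartile range as a covariate, 5 were called higher (Ndufa1, Ndufa4, Uqcrfs1, Atp5a1 and Atp5b), 2 lower (Ndufs7 and Sdhc), and the median was 0.07. In that fit 10.6% of all genes were called higher and 1395 of 10650 lower. After quantile normalization the median was 0.19, against 0.02 over all genes.

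**Figure D4:**
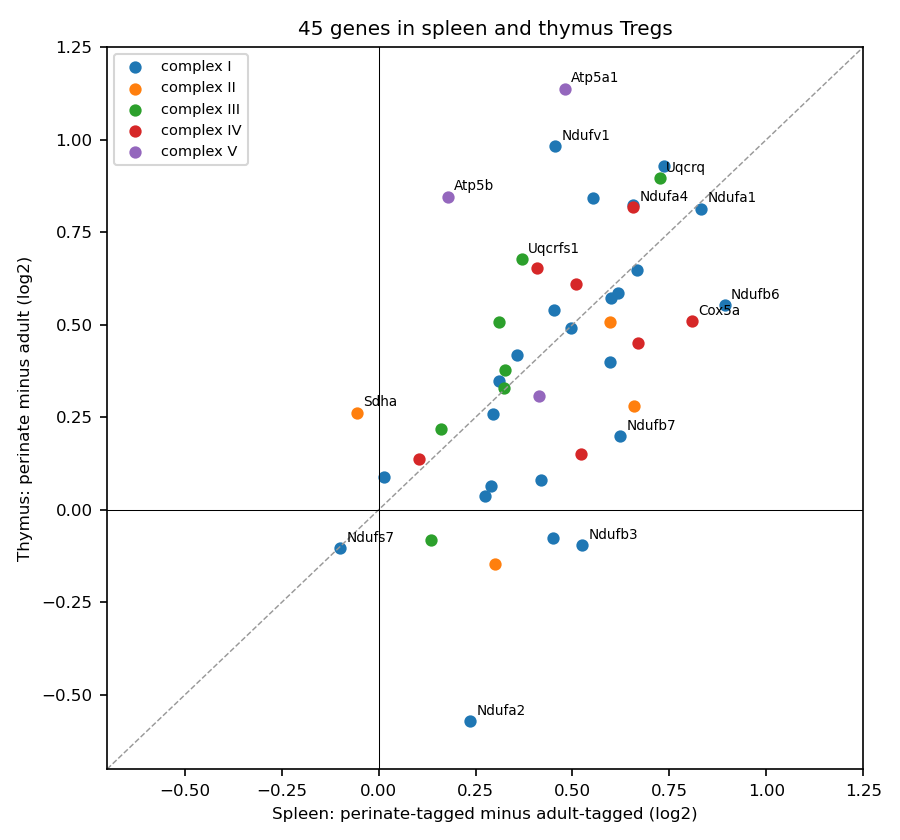
Each point is 1 respiratory chain gene, with its perinate-tagged minus adult-tagged difference in spleen and its perinate minus adult difference in thymus, both log2. Atp5b and Atp5a1 have the larger difference in thymus (0.85 against 0.18, and 1.14 against 0.48), and Ndufa1 has 0.81 in thymus and 0.83 in spleen.

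Both comparisons called 7 genes: Ndufa1, Ndufa4, Ndufc2, Uqcrq, Cox5a, Cox5b and Atp5a1. They were 7 of the 24 called in spleen and 7 of the 10 called in thymus, where 53.3% of all 45 were called in spleen. How many of all genes were called in both was not counted, so no agreement between the organs is read from this overlap. Ndufs1, Uqcrfs1 and Atp5b were called in the thymus and not in the spleen, and 17 genes in the spleen and not in the thymus. The difference between the 2 differences was tested over all 18 arrays. It had a median of 0.01 over the 45 genes and -0.05 over all genes, and 1 gene was called lower, which is 2.22% of the 45 where 2.56% of all 10889 genes were called lower and 3.89% higher. That gene was Atp5b, at -0.67 ± 0.19 (limma adjusted p = 0.041), meaning a smaller difference in tagged spleen cells than in thymus. Its call was lost without any 1 array other than adult thymus replicate 1, with adjusted p of 0.0681 to 0.108. Atp5a1, at -0.66 ± 0.25, was not called (limma adjusted p = 0.133).

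Over the 6 groups, perinate-tagged cells had the highest mean of 23 of the 45 genes and perinate thymus cells that of 16, adult thymus that of 4, and adult-tagged and adult-treated untagged cells that of 1 each. The lowest mean was in adult-tagged cells for 19 genes and in adult thymus for 19, in perinate-treated untagged cells for 4, in perinate thymus for 2 and in adult-treated untagged cells for 1. These counts were not made over all genes, and they mix spleen and thymus, which differ in sex, sorter and tissue. Nothing particular to the 45 genes is therefore read from them. The group means of Ndufa1 ranged most, over 1.62, and those of Uqcrc2, a core protein of complex III, least, over 0.25.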

How the data were processed

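The authors' deposited values are probe set intensities on a linear scale, and the submitters' processing notes name Affymetrix Power Tools and RMA; versions and genome build are not given in the sources used here. Values ran from 6.81 to 18850, with 0 below 1, and log2 was taken with no pseudocount and no further normalization. The number of arrays limits the precision. Of 24922 probe sets, 21425 carry 1 symbol, 1399 several and 2098 none. The probe set with the highest mean was kept, which gave 19752 genes (921 with several probe sets). Genes were tested if 1 or more group means reached 7.05 (133 linear), the median over the whole table: 10350 in spleen (12 arrays, with 8 residual degrees of freedom), 10650 in thymus (6 arrays, 4 degrees) and 10889 with all 18 arrays (12 degrees).

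Groups were compared with limma 3.58.1 under R 4.3.3 (functions lmFit and eBayes, two-sided moderated test, Benjamini-Hochberg over all genes of a comparison, threshold 0.05), in 7 comparisons. With values on every array are named, per complex, the 2 called genes with the largest difference whose groups do not overlap, or, where none was called, the 3 with the lowest p; from each list, at most 4 called genes. Ndufs7, Sdha, and Cycs in tagged cells, were singled out after their values were seen. The genes, lists and motifs were chosen with earlier results of these data known. A further arm with chimeras is not analysed here.

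On simulated data the code recovered 33 of 100 genes changed by 0.5 and 79 of 100 changed by 1 in the tagged comparison (10247 genes, 4 unchanged genes called), and 3 and 63 of 100 in the thymus (10000 genes, 4 unchanged genes called). Deviations from the group means of same-numbered untagged arrays correlated at 0.62, 0.13 and 0.45, each over 0.1, so these numbers were taken as pairs. This comes from the data, not the labels. Across numbers, untagged arrays 4 and 5 correlated at 0.28 and 0.29, above the 0.13 of number 4, and number 3 with 4 or 5 at -0.63 to -0.27. The pairing of numbers 4 and 5 is therefore not settled. Same-numbered thymus arrays (-0.05, 0.07 and 0.12) were not taken as pairs. Promoter windows are RefSeq's on GRCm38.p6, matched by Entrez gene ID. Python 3.11.15 with matplotlib 3.10.9 drew the figures. Alternatives covered normalization, centring, the filter, the probe set rule, array weights, the variance prior, which arrays entered, the replicate block and leaving out each array.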

Additional observations from a re-analysis of the deposited data

Results flagged for a closer look

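Ndufa1 and Ndufb7 stood out because the difference between perinate and adult cells was not the same in tagged and untagged spleen Tregs, by the interaction of the limma fit. The interaction was 1.19 ± 0.26 for Ndufa1 (adjusted p = 0.0135) and 0.85 ± 0.21 for Ndufb7 (adjusted p = 0.0314), both log2. Atp5b stood out because its perinate minus adult difference was smaller in tagged spleen cells than in thymus, by -0.67 ± 0.19 (limma adjusted p = 0.041), a comparison in which tissue, sex and sorter cannot be told apart. The shares called were near those of all genes: 4.44% against 4.29% (interaction, higher) and 2.22% against 2.56% (spleen against thymus, lower). Under alternative settings the call of Ndufa1 was kept in 22 and lost in 2. That of Ndufb7 was kept in 11 and lost in 13, and that of Atp5b kept in 8 and lost in 15.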

How the results depend on the processing

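For 19 genes named in 29 pairs of gene and comparison, 541 values were computed under alternatives: 424 kept direction and side of the threshold, 109 fell short of the threshold, 8 passed it where they had not, and 0 changed sign. In the tagged comparison, 24 genes called and a median of 0.45 became 10 and 0.29 under quantile normalization, 7 and 0.24 when centred on the median of the genes tested, 0 and 0.23 with the interquartile range as a covariate, and 7 called without both spleen arrays of narrowest range (adult-tagged replicate 1 and adult-treated untagged replicate 4). Of all genes, 16.0% were called higher in the main fit, and 10.7%, 8.45%, 2.95% and 8.96% in these, in that order. The count was 35 with array weights (41.1% of all genes higher), 30 with only the arrays of this comparison (25.2%) and 16 with all 18 (14.2%). It was 17 with no filter (6.81%) and 23 of 43 with a filter at the 60th percentile (18.2%). The 2 called in the interaction became 1 under quantile normalization, no filter, the interquartile range or centring on the genes tested (1.76% to 3.98% of all genes higher). They became 5 with array weights (8.10%) and 0 without both narrowest arrays (2.22%). In perinate-treated tagged against untagged cells, 0 became 18 with array weights, where 22.5% of all genes were called higher. It became 2 with a trended prior (5.86%), and 1 with only these arrays (6.76%) or all 18 (5.35%). In the thymus, 10 became 20 with all 18 arrays, where 25.3% of all genes were called higher. The median of 0.42 became 0.19 under quantile normalization or centring on the genes tested and 0.066 with the interquartile range. The 1 called between spleen and thymus became 0 with median centring or no filter. It became 17 with array weights (12 higher, 5 lower), where 25.2% of all 10889 genes were called higher and 2340 lower. With the interquartile range it became 3 (7.51% of all genes higher and 644 lower), and with centring on the genes tested 2 (5.03% higher and 459 lower). Centring on the genes tested and leaving out both narrowest arrays were chosen after seeing the data. The causes were not tested.

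With 1 array left out, counts ran from 6 to 24 (medians 0.39 to 0.52) in the tagged comparison, 1 to 3 (0.24 to 0.44) in the interaction, 1 to 23 (0.30 to 0.55) in the thymus and 0 to 2 (-0.092 to 0.18) between spleen and thymus. Of all genes, 7.60% to 15.8%, 2.44% to 5.35%, 4.76% to 29.1% and 2.62% to 5.58% were called higher in these fits, in that order. The counts were 0 in the untagged comparison (-0.01 to 0.13) and in tagged against untagged cells after perinatal (0.16 to 0.29) and adult treatment (-0.24 to -0.08). Outside the untagged comparison the replicate numbers were not taken as pairs: same-numbered correlations were 0.0007 for the 1 number that the tagged groups share, -0.11 and -0.0009 for perinate-treated tagged and untagged arrays, and 0.06 for adult-treated ones. With the replicate block all the same, 1 of the 45, Ndufb6, was called in the tagged comparison (median 0.33, with 5.57% of all genes higher). The block gave 0 of the 45 in the interaction (2.37%), 1, Ndufb2, in perinate-treated tagged against untagged cells (6.68%) and 0 between spleen and thymus (2.60%). In the thymus the block gave 11 higher and 1 lower, and it gave 0 in the untagged and the adult-treated comparison, as without it. Of the 45 genes, Ndufa1 in adult thymus lay nearest to background.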

Other observations

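Of 7 respiratory chain genes with several probe sets of their own, Cycs was the 1 whose probe sets differed in sign in the thymus. The probe set used (mean 11.83 over 18 arrays) had a perinate minus adult thymus difference of -0.08, and the next (11.34) had -0.04. The dimmest, at a mean of 6.40, had 1.02. In tagged spleen cells the 3 had 0.14, 0.18 and 0.05, in that order.

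The shared probe sets of Ndufb4 and Ndufb4b, 2 in number, had perinate minus adult differences of 0.09 and 0.08 in tagged cells and 0.29 and 0.20 in the thymus.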
